A study of Drosophila melanogaster with 6 samples.

Results

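The genes described here are the long noncoding RNA (lncRNA) genes that were measurably expressed in heads of male Drosophila melanogaster. They were selected on mean CPM (a gene's counts scaled to a common total of 1000000 gene reads per library). A gene was taken when its symbol begins with lncRNA: and its mean over the 6 head libraries was at least 5 CPM, with lncRNA:roX1 and lncRNA:roX2, the dosage compensation RNAs of the X chromosome, left out. Of the 17807 genes counted, 1911 are lncRNA: genes, 876 of these had at least 1 read, and 57 met the rule. The level over all libraries therefore chose them, and that they are abundant is not a result. Just inside the limit were CR45267 at 5.25 CPM and CR43241 and CR45758 at 5.14 CPM each. Just outside it were CR44023 at 4.98 CPM, CR43650 at 4.88 CPM and CR44506 at 4.63 CPM.

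The 3 control libraries and the 3 pum kd libraries were each made from poly-A RNA of 10 pooled heads. The study lists both genotypes with w1118 over the y1, sc*, v1 and sev21 markers of the X chromosome. Males have a single X chromosome, and which of these the sequenced males carried was not given. Both genotypes also carried esg-Gal4 and UAS-2xYFP over +, and Su(H)GBE-Gal80 with tub-Gal80ts on the third chromosome. Opposite these, control flies carried UAS-mCherryRNAi (VALIUM20-mCherry.RNAi in attP2), which targets a protein that flies lack, and pum kd flies carried UAS-pumRNAi (TRiP.HMS01564 in attP2), which targets the translational repressor Pumilio. All flies were reared at 18 °C, the transgenes were expressed at 29 °C, and the flies recovered for 30 min at that temperature before freezing. The adult age was not given in the labels. The driver works in the corpus allatum (CA) and in intestinal stem cells (ISCs), whereas whole heads were sequenced, and the comparison asks how head RNA differed after a knockdown aimed at these tissues. Expression of the driver in a few brain neurons was not tested. The RNAi transgenes came from different stocks, and effects of the stocks' chromosomes and of pum knockdown cannot be told apart. In bulk heads, fewer cells of a type and less RNA per cell cannot be told apart either.

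lncRNAs are transcribed and often spliced and polyadenylated like mRNAs, but they have no long conserved reading frame. Some are structural, as Hsromega is for nuclear bodies that store RNA-binding proteins. Others are the primary transcripts from which microRNAs or small nucleolar RNAs are cut, lie antisense to a coding gene, or have no known role. Many fly lncRNAs are expressed in the nervous system, which is a large part of the head. RNAs without a poly-A tail are lost in the selection used for these libraries.

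Gene counts summed to between 33258537 and 39377789 reads per library. Levels in single libraries are given in the order of replicates 1, 2 and 3 of each genotype. The lowest count of any of the 57 genes in any library was 46, and none was at 0. The summed markers of photoreceptors ranged from 78813 to 96414 CPM and those of neurons from 3080 to 5255 CPM, as a head should have. The summed testis markers reached at most 4.19 CPM and the accessory gland markers at most 1.30 CPM. The midgut markers, 2 of 5 of which had no reads, summed to 29.6 to 47.7 CPM in control libraries. In pum kd libraries they summed to 40.2 to 65.2 CPM, and their source was not tested. The antenna markers, 4 of 5 of which were found in the table, summed to 2.40 to 4.88 CPM in control libraries and 4.34 to 109 CPM in pum kd libraries, and their part in the results was not tested. The labels do not name batches, but the authors' corrected values are given back in full by a batch correction that sets control replicates 1 and 2 and pum kd replicate 1 against the other libraries. In pum kd heads pum RNA itself overlapped the controls (346, 168 and 270 CPM in the controls against 176, 192 and 228 CPM in pum kd heads), a log2 fold change of -0.40 (adjusted p = 0.993 by edgeR). No intervals for counting error are given, since the reads carry no molecular identifiers.

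The 57 genes together took a small and uneven share of the reads. They held between 0.627% and 0.882% of the gene counts of a library, and CR42862, noe and Hsromega alone made up 78.7% to 86.3% of that share. Of the 57 genes, 6 were above 100 CPM, 23 lay between 10 and 100 CPM and 28 lay between 5 and 10 CPM. The median of the mean levels was 10.2 CPM. The summed level of controls was 7408 ± 1242 CPM (SD, n = 3) and that of pum kd heads 7324 ± 981 CPM (SD, n = 3), scaled with edgeR's TMM factors as are all CPM values by library. The groups overlapped (exact permutation test, two-sided p = 1.0; the smallest p that 3 against 3 allows is 0.1).

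Per length of exon, with the exons of all annotated transcripts of a gene merged, the order of levels was different. The median of the 57 genes was 7.02 CPM per kb, against 11.2 CPM per kb over the 10696 genes tested, and their median exon length was 1429 bases against 2003.5 bases. The highest level was that of noe with 937 CPM per kb, followed by CR42862 with 772, CR34335 with 438 and CR40469 with 372 CPM per kb. Hsromega, with 7 annotated transcripts and the longest merged exon of the 57 at 21710 bases, had 35.4 CPM per kb. The lowest was CR46003, with 21024 bases of merged exon and chosen after its value was seen, at 0.321 CPM per kb. After this merging, 34 of the 57 genes form 1 unbroken stretch of exon, which can hide spliced transcripts within it.

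By position, 15 of the genes lie on chromosome 3L, 15 on 3R, 12 on X, 8 on 2R, 6 on 2L and 1 on chromosome 4 (dm6). Small RNA genes aside, 30 of them share no base with the span of another gene, 11 lie within or across the span of another gene without sharing exon bases, and 16 share exon bases with another gene. In the last class 9 share bases on the same strand and 8 on the other strand, with CR46003 in both. The libraries were stranded, but the strand setting of the counting was not given, so levels in this class are uncertain. The median log2 fold change of pum kd against control was -0.16 in the intergenic genes, with 20 of 30 fitted lower. It was -0.03 in the genes with shared exon bases, with 8 of 16 lower, and 0.15 in the 11 genes inside other genes' spans, with 4 lower. These class values are a description without a test.

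A single lncRNA gene of the 57, CR44645, differed between control and pum kd heads at both thresholds used (adjusted p under 0.05 by edgeR, log2 fold change of 1 or more in either direction). That is 1.75% of the 57 genes, all of which passed the filter on low counts, beside 0.103% of all genes tested (0.0187% called lower and 0.0841% called higher). CR44645 met the rule through the controls, since its mean in pum kd heads, 1.49 CPM, was below the limit, so its share is given as a description and supports nothing about the 57 genes. In all, 7 of the 57 genes had a pum kd mean and 1 a control mean below 5 CPM. With no gene of the 57 called higher, the number fitted higher with an unadjusted p under 0.05 was 1, and DESeq2 also called none higher. An unadjusted p under 0.05 was found for 5 of the genes (8.77%), 4 lower and 1 higher, beside 4.95% of all genes. In 4 genes (7.02%) the 3 pum kd libraries all lay below the 3 controls, as they did in 4.95% of all genes. In 3 genes (5.26%) they all lay above, as in 5.36% of all genes. With 57 genes, each gene more or fewer moves such a share by 1.75 percentage points. CR44645 is also counted in the share with an unadjusted p under 0.05 and in the share below the controls. These are therefore a description too, and support nothing about the 57 genes.

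Most of the fitted differences were small. The median log2 fold change was -0.10 over the 57 genes and -0.03 over all genes tested, with 32 genes (56.1%) fitted lower, against 54.4% of all genes. The absolute log2 fold change was under 0.5 in 44 genes and at least 1 in 3. The median standard error was 0.31 (all genes, 0.24), and the median SD of log2 CPM within a group was 0.38 (all genes, 0.31). Differences well under a doubling were therefore not detectable for most of these genes, and larger ones could also fail to pass. CR45018 at -1.23 and CR43334 at -1.06 did not pass (adjusted p = 0.165 and 0.635 by edgeR). The fitted differences plotted gene by gene show CR44645 far from the rest.

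**Figure D1:**
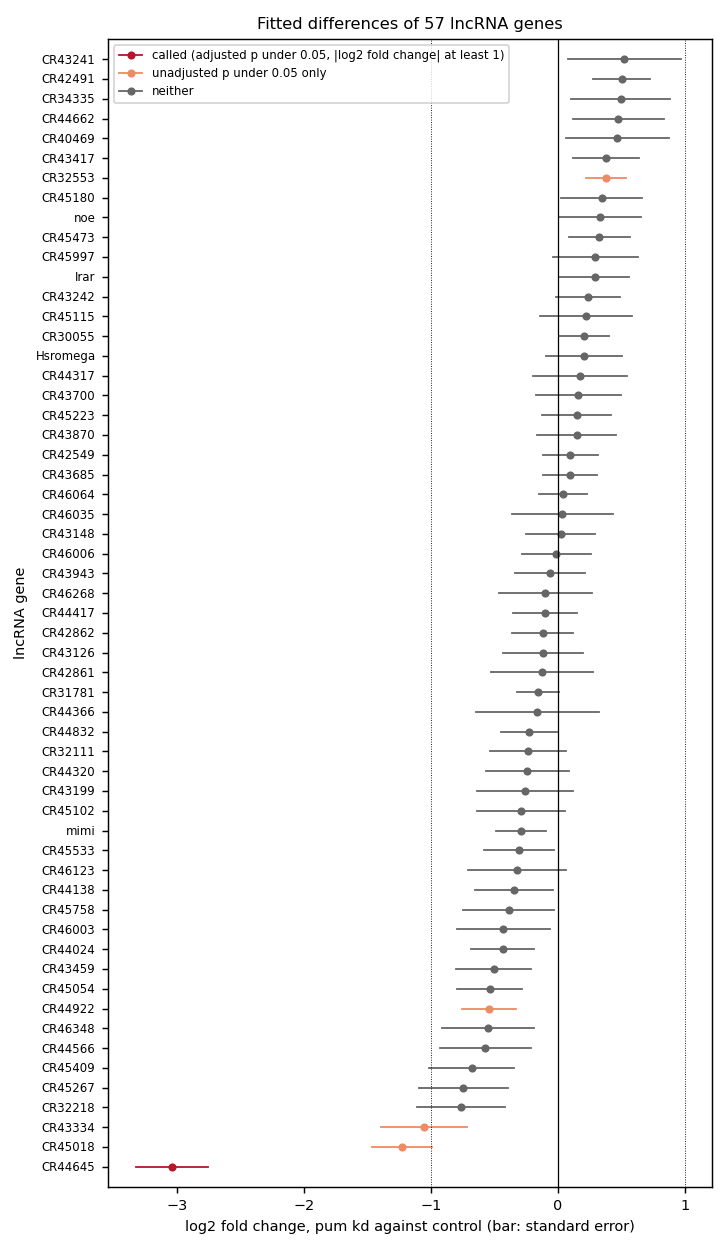
Each point is the log2 fold change of 1 lncRNA gene, pum kd against control (n = 3 libraries each), and each bar is its standard error; dotted lines mark an absolute log2 fold change of 1. CR44645 at -3.04 is the only called gene, and 44 of the 57 genes lie within 0.5 of 0.

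CR44645 (FBgn0265856) is an unspliced RNA of 701 bases on the plus strand of chromosome 2R, from 20506195 to 20506895 (dm6). Its level was 11.2, 12.0 and 13.7 CPM in the controls against 1.47, 1.73 and 1.28 CPM in pum kd heads. The control libraries all lay far above the pum kd libraries, and the spread within each group was small. The log2 fold change was -3.04 (SE, the standard error, 0.29; edgeR quasi-likelihood test, adjusted p = 0.00232 over all genes). On both sides of the batch division the order was the same, with pum kd replicate 1 below control replicates 1 and 2, and the other pum kd libraries below control replicate 3. Without control replicate 3 the log2 fold change was -2.95 and the adjusted p by edgeR was 0.0603, so the call was lost there.

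Around CR44645 the annotation places other transcripts close by. CR44644, on the opposite strand, overlaps it by 201 bases and had raw counts of 0, 0 and 24 in control replicates 1, 2 and 3 and 12, 11 and 0 in pum kd replicates 1, 2 and 3, too few to be tested. Obp57a, an odorant-binding protein gene on the same strand, ends 436 bases upstream. Its level was 27.4, 52.2 and 39.2 CPM in the controls against 28.2, 27.8 and 19.8 CPM in pum kd heads. These groups overlapped, and the log2 fold change of Obp57a was -0.65 (adjusted p = 0.834 by edgeR).

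The genes whose levels followed CR44645 most closely over the 6 libraries were Strica, a caspase gene (Pearson r = 0.995 of log2 CPM), the lncRNA gene CR44537 (0.994), the antisense RNA gene CR43979 (0.984), CG42329 (0.982) and the antisense RNA gene CR45271 (0.980). All 5 had a negative log2 fold change, and the coefficients include the difference between genotypes that these genes share. These libraries also share their depth and batches, and no test was made.

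Next in p-value came CR45018 (FBgn0266376), on the plus strand of chromosome X from 13304005 to 13308004. Its 3 annotated transcripts merge into 1 stretch of exon of 4000 bases. Its level was 15.8, 12.6 and 15.7 CPM in the controls against 6.42, 7.34 and 5.03 CPM in pum kd heads. The groups did not overlap. The log2 fold change was -1.23 (SE 0.24), and the adjusted p of 0.165 by edgeR did not pass. The gene did pass with DESeq2 (adjusted p = 0.00894), with edgeR on all genes without a filter (adjusted p = 0.0406) and with DESeq2 after ComBat-seq (adjusted p = 0.000281).

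CR45018 lies near the start of IP3K2, a gene for an inositol trisphosphate kinase on the same strand, and 1433 of its bases are annotated as exon of both genes. Reads of the shared bases could be assigned to either gene or to none. IP3K2 had 78.1, 70.9 and 76.8 CPM in the controls against 78.6, 79.6 and 102 CPM in pum kd heads. The pum kd libraries lay above the controls, replicates 1 and 2 only narrowly, with a log2 fold change of 0.20 (adjusted p = 0.993 by edgeR).

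**Figure D2:**
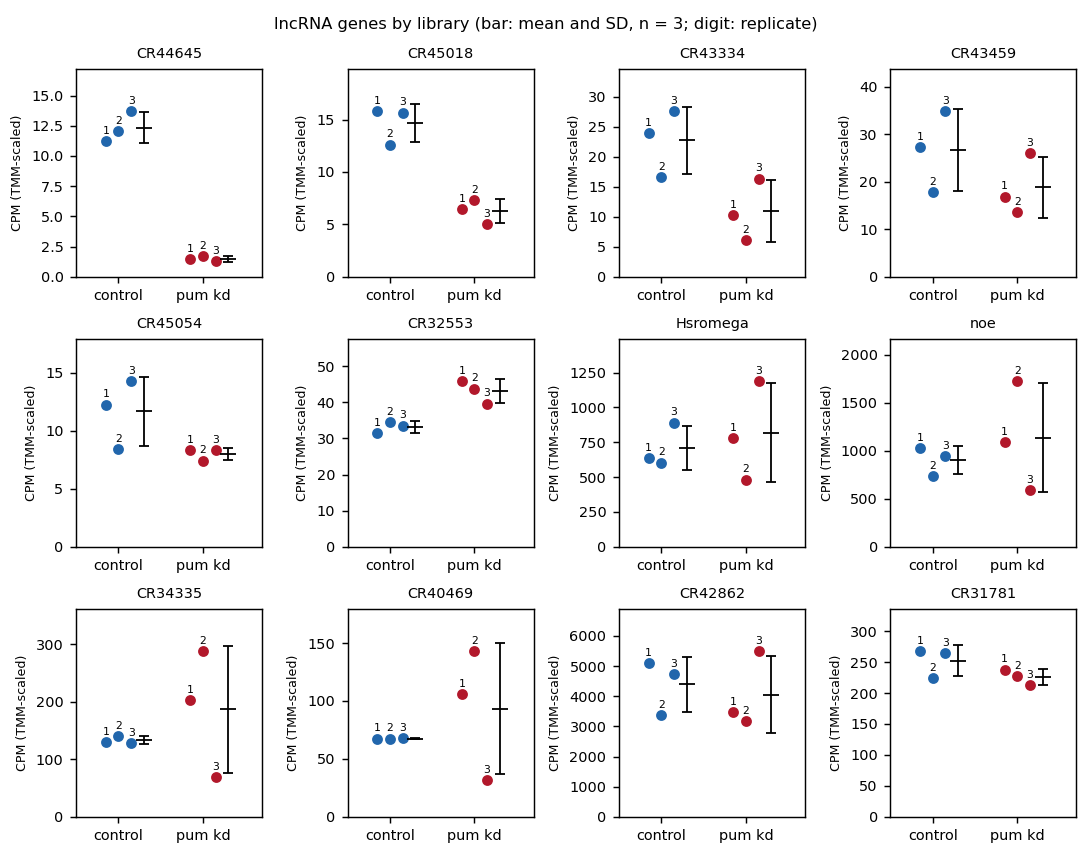
Level of 12 lncRNA genes in each library, in TMM-scaled CPM on linear axes from 0; digits give the replicate, and the bar beside each group is the mean and SD (n = 3). CR44645 and CR45018 are separated by genotype, while noe, CR34335 and CR40469 are highest in pum kd replicate 2 and lowest in pum kd replicate 3.

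Small RNAs are encoded within 5 of the 57 genes. The microRNA host genes are CR43334 (bantam, a microRNA that promotes growth and blocks cell death), CR43459 (mir-34 and mir-277, microRNAs tied to ageing and to amino acid metabolism), CR46006 (mir-276a) and Hsromega (mir-4951), and CR42491 holds the small nucleolar RNA Psi18S-531. By edgeR none of the 5 passed the test, 1 had an unadjusted p under 0.05, and DESeq2 called none. Reads on these genes come from the polyadenylated host RNA, and the mature microRNAs were not measured.

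The largest difference among the hosts was in CR43334 (FBgn0286827), on chromosome 3L from 628435 to 643900, plus strand. Its 3 annotated transcripts merge into 1 stretch of exon. Its level was 24.0, 16.6 and 27.7 CPM in the controls against 10.3, 6.14 and 16.4 CPM in pum kd heads. The groups did not overlap, but pum kd replicate 3 nearly reached control replicate 2. The log2 fold change was -1.06 (SE 0.34, adjusted p = 0.635 by edgeR), and it was -0.85 with a correction for gene length. On the opposite strand CR43423 shares 994 exon bases with it, and had raw counts of 21, 0 and 11 in the controls and 4, 5 and 0 in pum kd heads.

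CR43459 (FBgn0263413), the host of mir-34 and mir-277 on chromosome 3R from 10093761 to 10101356, had overlapping groups. Its level was 27.3, 17.8 and 34.9 CPM in the controls against 16.9, 13.6 and 26.0 CPM in pum kd heads. The log2 fold change was -0.51 (adjusted p = 0.993 by edgeR), and it was -0.26 without control replicate 3 and -0.81 without pum kd replicate 3. CR45054, another of the 57 genes, ends 3235 bases upstream on the same strand, and whether it is part of the same transcript cannot be read from gene counts. Its level was 12.3, 8.45 and 14.3 CPM in the controls against 8.34, 7.45 and 8.34 CPM in pum kd heads. The pum kd libraries lay just below the lowest control, and the log2 fold change of -0.54 did not pass (adjusted p = 0.993 by edgeR). In both genes control replicate 3 was highest and pum kd replicate 2 lowest. Fmr1, which encodes an RNA-binding translational regulator, ends 63 bases from CR43459 on the opposite strand and had a log2 fold change of -0.30 (adjusted p = 0.993 by edgeR).

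CR46006 (FBgn0267668) did not differ detectably, at 13.1, 7.88 and 11.4 CPM in the controls against 13.5, 8.35 and 10.2 CPM in pum kd heads. The libraries of both genotypes covered the same range, and the log2 fold change was -0.01 (SE 0.27, adjusted p = 1.0 by edgeR), of a sign that turned in 10 of 16 other settings. CR42491 (FBgn0259993) had 7.31, 9.33 and 8.71 CPM in the controls against 12.7, 10.2 and 13.0 CPM in pum kd heads. All pum kd libraries lay above all controls, with a log2 fold change of 0.50 (adjusted p = 0.993 by edgeR). It shares 377 exon bases with the ribosomal protein gene RpL22 on the same strand, whose log2 fold change was -0.02, so its own level is uncertain. For core proteins of small nucleolar ribonucleoproteins, 6 of the 8 listed genes were found and tested. The median log2 fold change of their RNA was 0.14. None was called by edgeR or DESeq2, and none had an unadjusted p under 0.05.

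Long genes differed between libraries of one genotype, which bears on these hosts. Among the 13 of the 57 genes with at least 4 kb of exon, the median deviation from the mean of the 6 libraries on the log2 scale was 0.41 in control replicate 1, -0.28 in control replicate 2, 0.17 in control replicate 3, -0.21 in pum kd replicate 1, -0.32 in pum kd replicate 2 and 0.13 in pum kd replicate 3. Over all 2110 tested genes of that length the values in the same order were 0.35, -0.27, 0.15, -0.27, -0.05 and 0.11. They were near those of the lncRNA genes except in pum kd replicate 2, which was low in the long lncRNA genes and not over all long genes. The part of length in the differences of CR43334, CR43459 and CR45018 was tested only through the length correction, under which CR43459 had a log2 fold change of -0.34 and CR45018 one of -1.15.

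**Figure D3:**
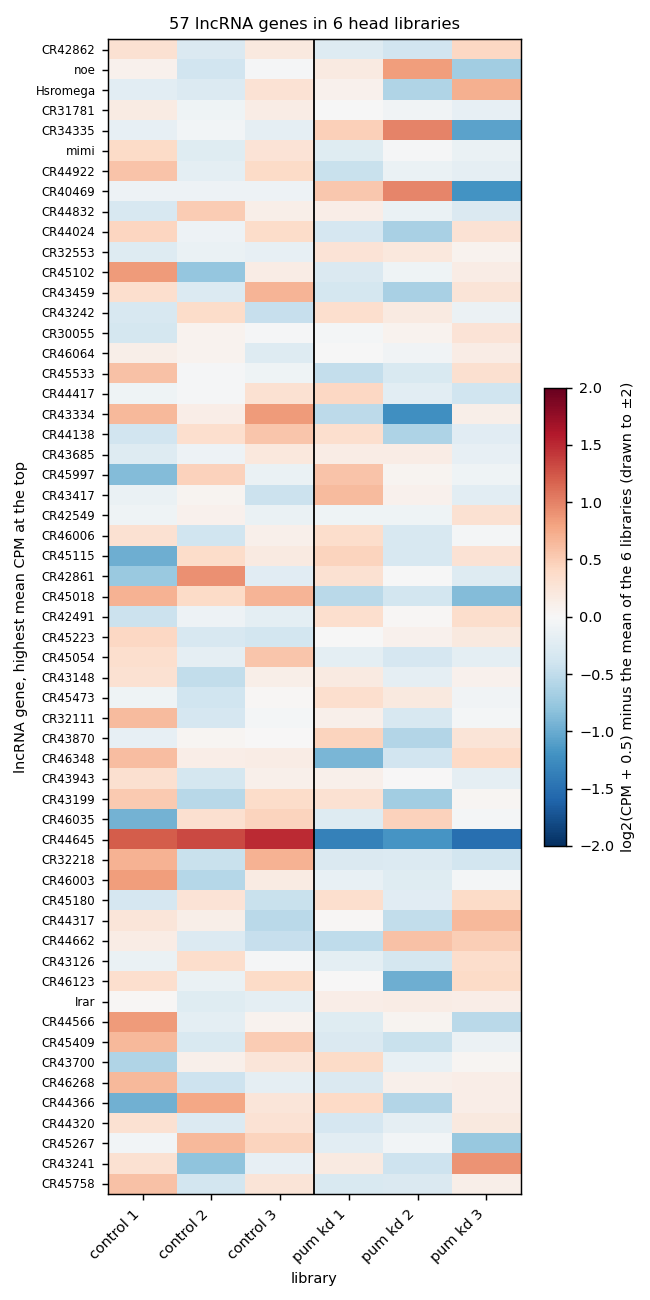
Each row is 1 of the 57 lncRNA genes, ordered by mean CPM, and each column 1 library; colour is log2(CPM + 0.5) minus the mean of the 6 libraries, drawn to 2 in either direction. CR44645 shows the strongest division by genotype of the 57 genes, whereas control replicate 2 is the lowest control in 29 of the 57 genes (50.9%, beside 38.6% of all genes) and control replicate 1 the highest in 28 (49.1%, beside 38.0%).

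Hsromega (FBgn0001234, chromosome 3R from 21296127 to 21317836) is the classic heat-inducible lncRNA of the fly, whose nuclear form organises omega speckles around hnRNP proteins. Its level was 635, 604 and 891 CPM in the controls against 779, 482 and 1191 CPM in pum kd heads. The lowest and the highest values both came from pum kd libraries. The log2 fold change was 0.20 (SE 0.30, adjusted p = 0.993 by edgeR), and it turned to -0.17 without pum kd replicate 3.

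The heat shock protein genes, in contrast, were higher in pum kd heads. Of the 12 listed, 11 were tested and 6 were called higher by edgeR, beside 0.0841% of all genes. All 11 had pum kd libraries above the controls without overlap, beside 5.36% of all genes. Their median log2 fold change was 2.36. The study selected heat shock genes for discussion from these libraries, so the list is not independent evidence of its direction. The 6 Hsp70 copies, which encode inducible chaperones and whose near-identical sequences leave single copies uncertain, summed to 31.2, 27.2 and 25.0 CPM in the controls against to 253, 115 and 168 CPM in pum kd heads. Every pum kd library lay several-fold above the controls. Hsp83, the fly Hsp90 gene, had 1676, 1596 and 1493 CPM in the controls against 4975, 3711 and 3772 CPM in pum kd heads, also without overlap.

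As a description with no test, since the heat shock genes were already known to be higher, the log2 ratio of summed Hsp70 copies to Hsromega was -4.66 ± 0.44 (SD, n = 3) in control heads and -2.17 ± 0.61 (SD, n = 3) in pum kd heads. For Hsp83 it was 1.18 ± 0.38 (SD, n = 3) and 2.43 ± 0.68 (SD, n = 3). Pum kd replicate 3, with the most Hsromega, was not the library with the most Hsp70.

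**Figure D4:**
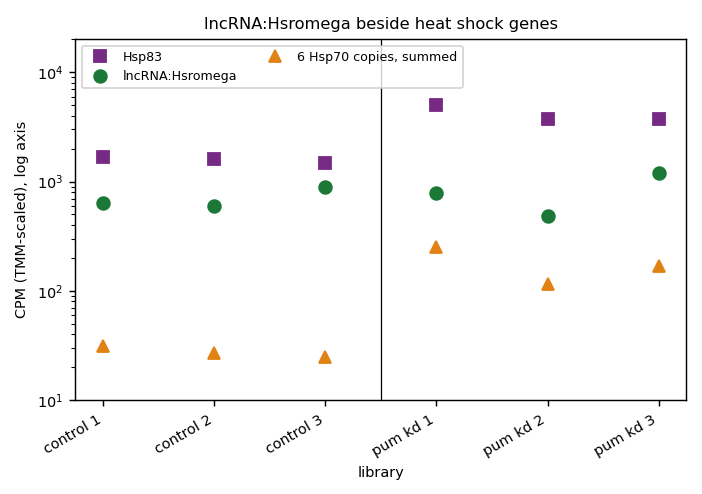
Levels of Hsromega, of the 6 Hsp70 copies summed and of Hsp83 in each of the 6 libraries, in TMM-scaled CPM on a log axis. The heat shock genes are higher in every pum kd library, while the Hsromega values of the groups overlap, from 482 to 1191 CPM.

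Proteins that bind or act with Hsromega in omega speckles include the hnRNPs Hrb87F and Hrb98DE, the chromatin remodeller Iswi and the heat shock factor Hsf. The RNA of 9 such genes was measured, and the proteins were not. Of the 9 listed genes, edgeR called none, none had an unadjusted p under 0.05, and DESeq2 called none. Their log2 fold changes ranged from -0.30 to 0.13 with a median of -0.07. The genes for subunits and helpers of the nuclear exosome, which degrades many noncoding RNAs, were also without a call by edgeR or DESeq2. None of the 12 tested had an unadjusted p under 0.05. Their median log2 fold change was -0.08. Over the 6 libraries the genes most like Hsromega were gl, the photoreceptor transcription factor glass (Pearson r = 0.988 of log2 CPM), CG2111 (0.985), ova (0.980), CG42238 (0.977) and CG17683 (0.975). These coefficients describe 6 libraries that share depth and batches and were not tested.

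CR42862 (FBgn0262109, chromosome 3L from 224106 to 230964), the most abundant of the 57, had 5106, 3364 and 4734 CPM in the controls against 3466, 3179 and 5509 CPM in pum kd heads. Its groups covered nearly the same range, and the log2 fold change was -0.12 (SE 0.24, adjusted p = 0.995 by edgeR). It shares 246 exon bases with CG33229, whose log2 fold change was 0.03. CR31781 (FBgn0051781) was among the steadiest, at 268, 224 and 265 CPM in the controls against 238, 227 and 213 CPM in pum kd heads. Its SD of log2 CPM within a group was 0.12, and its log2 fold change was -0.16 (adjusted p = 0.993 by edgeR).

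noe (FBgn0026197, chromosome 3L from 17400272 to 17401348), an RNA of the nervous system, lies within the span of blot on the same strand. Its level was 1025, 736 and 948 CPM in the controls against 1089, 1728 and 591 CPM in pum kd heads. Both the highest and the lowest value were in pum kd heads, and the log2 fold change was 0.33 (SE 0.32, adjusted p = 0.993 by edgeR). blot, with a log2 fold change of -0.19, did not show the high value of pum kd replicate 2, where it was lowest at 35.4 CPM.

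The short RNAs CR34335 and CR40469, both on chromosome X, shared this order in pum kd heads. CR34335 (FBgn0267910), of 361 bases within the span of DIP-alpha, a gene for a neuronal cell surface protein, had 130, 141 and 128 CPM in the controls against 203, 289 and 69.4 CPM in pum kd heads. CR40469 (FBgn0058469), of 214 bases, had 67.5, 67.6 and 67.6 CPM in the controls against 106, 143 and 31.4 CPM in pum kd heads. In both genes the controls were nearly alike, while pum kd replicates 1 and 2 lay above them and pum kd replicate 3 below. The log2 fold changes were 0.49 for CR34335 and 0.47 for CR40469 (adjusted p = 0.993 for each by edgeR). Without pum kd replicate 2 they were 0.06 and 0.05, and without pum kd replicate 3 they were 0.89 and 0.88. They had the highest SDs of log2 CPM within a group of the 57 genes, 0.76 for CR34335 and 0.81 for CR40469, followed by 0.73 for CR44366.

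The ratio of CR34335 to CR40469, examined after these values were seen, lay between 1.89 and 2.21 in all 6 libraries, although the genes lie far apart on the chromosome. Whether their sequences are alike, so that reads of one RNA could be counted on both genes, was not tested. DIP-alpha itself had a log2 fold change of -0.12 and did not follow CR34335.

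Of the other genes with an unadjusted p under 0.05, CR44922 (FBgn0266227, chromosome 3R) had 124, 72.5 and 109 CPM in the controls against 60.8, 75.8 and 73.3 CPM in pum kd heads. Control replicate 2 lay among the pum kd libraries, and the log2 fold change was -0.54 (SE 0.21, adjusted p = 0.845 by edgeR). CR32553 (FBgn0052553, chromosome X) had 31.5, 34.6 and 33.6 CPM in the controls against 46.0, 43.8 and 39.7 CPM in pum kd heads. All pum kd libraries lay above all controls, with the smallest SD within groups of the 57 genes (0.09 of log2 CPM). The log2 fold change was 0.38 (SE 0.16, adjusted p = 0.911 by edgeR). The remaining gene with groups that did not overlap was Irar, which lies within the span of the insulin receptor gene InR on the opposite strand and was chosen after its values were seen. It had 6.16, 5.02 and 5.24 CPM in the controls against 6.69, 6.73 and 6.64 CPM in pum kd heads, a log2 fold change of 0.29 (adjusted p = 0.993 by edgeR). InR had a log2 fold change of -0.20 and overlapping groups.

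The other genes with low p-values had overlapping groups. Lower fitted values were found for CR32218 (log2 fold change -0.77), CR45267 (-0.75) and CR45409 (-0.68). Higher ones were found for CR43241 (0.52), CR44662 (0.48), CR43417 (0.38) and CR45473 (0.33). The adjusted p by edgeR was 0.993 for each. CR45267 and CR45409 had pum kd means below 5 CPM (3.91 and 4.63 CPM), and CR43241 a control mean below it (4.20 CPM). These met the rule through the other group, so their directions are only a description. Among the 10 most abundant genes, CR44832 had a log2 fold change of -0.23 and CR44024, the single gene on chromosome 4, one of -0.44, also at an adjusted p of 0.993 by edgeR. mimi, at 202, 130 and 186 CPM in the controls against 130, 152 and 141 CPM in pum kd heads, had overlapping groups and a log2 fold change of -0.29 (adjusted p = 0.993 by edgeR).

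A list of lncRNAs named or studied for a role held 22 names, of which 14 were found in the table, 7 were tested and 4 belong to the 57 genes. Besides Hsromega, noe and mimi, this is CR30055 (FBgn0050055), which had 16.9, 22.6 and 21.2 CPM in the controls against 21.0, 22.7 and 26.3 CPM in pum kd heads. Its groups overlapped, with a log2 fold change of 0.20 (adjusted p = 0.993 by edgeR). Of the 7 tested, edgeR and DESeq2 called none, and 2 had an unadjusted p under 0.05, beside 4.95% of all genes. These 2 were CR33942 and marge, both below the limit of 5 CPM, and none of the 4 among the 57 genes had one. The gene marge had reads only in pum kd libraries, and so passed the filter on low counts through them alone. CRG, yar, bxd and iab8 had no reads in any library. CR33942, just below the limit at a mean of 4.07 CPM, had 1.81, 4.19 and 1.06 CPM in the controls against 6.36, 4.78 and 6.06 CPM in pum kd heads. The pum kd libraries all lay above the controls, with a log2 fold change of 1.28 (SE 0.51, adjusted p = 0.863 by edgeR).

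For 54 of the 57 genes an overlapping or nearest coding gene was tested, and 25 of these pairs (46.3%) had log2 fold changes of the same sign. Of the 100 coding neighbours tested, edgeR and DESeq2 called none, and 6 (6.0%) had an unadjusted p under 0.05, beside 4.95% of all genes. The lncRNA: genes below the limit gave less precise values. Of the 329 that were tested, edgeR called none (lowest adjusted p = 0.168), and 15 (4.56%) had an unadjusted p under 0.05, beside 4.95% of all genes. DESeq2 called 3, a count to be read beside its total over all genes, given below. Their median standard error of the log2 fold change was 1.50, and 21 had pum kd libraries all above and 23 all below the controls, 13.4% together beside 10.3% of all genes.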

How the data were processed

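Poly-A RNA of 10 pooled male heads per library was sequenced from stranded libraries. According to the submitters' processing notes, reads were checked with FastQC 0.12.1, trimmed with Trimmomatic 0.39 and aligned to dm6 with STAR 2.7.11b, which also counted them. The annotation and the strand setting of the counting were not given in the sources used here. Per gene, the authors deposited unnormalized read counts, and all tests used these. In a second table the authors deposited a normalized signal, batch-corrected counts divided by size factors, which served here only to find the batches of their correction. Its other columns hold the authors' DESeq2 comparison (base means, log2 fold changes, standard errors, a test statistic and p-values) and were not used.

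Rows that name no gene (11.5% to 14.2% of a library's counts) entered neither the library sizes nor the tests. Of the 17807 gene identifiers, 17710 matched the Ensembl annotation of dm6, which gave positions and exon lengths. In R 4.3.3, edgeR 4.0.16 was run on the 10696 genes that passed filterByExpr (quasi-likelihood test with TMM factors, p-values adjusted over all of these genes after Benjamini and Hochberg), with genotype as the only term. A call needed an adjusted p under 0.05 together with a log2 fold change of 1 or more in either direction. The standard error of a log2 fold change was its absolute value over the square root of the F statistic. Likeness, deviations and SDs used log2(CPM + 0.5). Libraries of one genotype gave a chi-square of 45.8 or more for each degree of freedom, so all 6 were counted as separate. The labels only number the replicates, and the study calls them biological replicates. It also states that flies of each genotype were pooled in tubes before the heads were collected. The chi-square shows only that no library repeats another, and whether the pools are independent was not tested.

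The alternatives were DESeq2 1.42.0, RLE factors, no filter, a minimum mean CPM, robust dispersions, the replicate block, a term for the authors' batches, ComBat-seq (sva 3.50.0) by those batches before edgeR or DESeq2, a gene length correction, and each library left out in turn. The scripts were tested on simulated counts.

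The genes and lists described were chosen with earlier results of these data known. The genes named are the called gene, up to 8 per direction with the lowest p-values, the 10 most abundant, those hosting small RNAs or on the list of named lncRNAs, the 3 on either side of the limit and the 3 most variable within genotypes. Irar and CR46003 were named after their values were seen. No genome sequence was used here, so searches for Pumilio elements and heat shock elements were not run and no sequence is shown.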

Additional observations from a re-analysis of the deposited data

How the results depend on the processing

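The fall of CR44645 was called in 15 of 16 alternatives, with log2 fold changes from -3.21 to -2.94, and was lost only without control replicate 3. The number of lncRNA genes called was 1 except for 2 with DESeq2, 2 without a filter and 2 with ComBat-seq before DESeq2, where CR45018 was added. The number at an adjusted p under 0.05 was 2, 2 and 3 in the same settings. Leaving out each library in turn gave 0 to 1 genes by either measure. These counts are to be read beside the totals called over all genes, given below. Totals over all genes at the adjusted p alone are not given, and the counts support nothing about the 57 genes. The count of genes lower without overlap was 4, 2 without a filter (3.51%, beside 3.02% of all genes) and 7 with ComBat-seq (12.3%, beside 7.40% of all genes before edgeR and 8.56% before DESeq2). Leaving out single libraries gave 3 to 15 genes lower and 4 to 8 higher, with fewer libraries to overlap by construction. The highest counts were 15 lower without control replicate 2 (26.3%, beside 15.8% of all genes) and 8 higher without pum kd replicate 3 (14.0%, beside 11.9%). The median log2 fold change of the 57 genes was -0.14 to 0.02 when single libraries were left out.

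Of 480 values of 30 named genes among the 57 under alternatives, 19 had the opposite sign, all in 7 genes without a call. CR46006 had a log2 fold change of 0.0020 with DESeq2 and with RLE factors, 0.037 without a filter, 0.035 with the batches as a term, 0.0019 with ComBat-seq before edgeR and 0.23 with the length correction, and -0.18 to 0.16 when single libraries were left out. In the same way CR42862 ranged from -0.40 to 0.060, noe from -0.076 to 0.64, Hsromega from -0.17 to 0.50, CR44832 from -0.42 to 0.023, CR46003 from -0.70 to 0.011 and CR44366 from -0.54 to 0.32. Of the genes that kept their sign, CR34335 (0.06 to 0.89), CR40469 (0.05 to 0.88), CR43241 (0.07 to 0.86), CR43459 (-0.81 to -0.26), CR43417 (0.15 to 0.56), CR44024 (-0.74 to -0.22), CR45758 (-0.60 to -0.13), CR30055 (0.09 to 0.32), CR44662 (0.31 to 0.81) and mimi (-0.43 to -0.17) also moved by over 1.5 times without 1 library. The cause was not tested.

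Over all genes, edgeR called 11 of 10696, against 64 of 10696 with DESeq2 and 73 of 13234 without a filter. ComBat-seq gave 29 of 10358 before edgeR and 220 of 10380 before DESeq2. There were 22 calls with the length correction, 30 without control replicate 2 and 1 without control replicate 3. With the replicate block, 1 lncRNA gene was called and CR44645 kept its log2 fold change of -3.04 (adjusted p = 0.00324 by edgeR). The replicate numbers were not taken as pairs. Deviations of same-numbered libraries correlated at -0.087 to 0.014, and those of differently numbered ones at -0.049 to 0.063. With so few libraries this cannot show whether same-numbered ones were handled together.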

Other observations

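IBIN, an infection-induced RNA gene, has no lncRNA: prefix in the annotation used and so was not among the 57 genes, although its mean of 6.05 CPM was above the limit. It had 0 reads in every control library and 0, 1295 and 117 reads in pum kd replicates 1, 2 and 3, and the filter on low counts left it out of the test. The lncRNA gene marge had 0 reads in every control library and 13, 14 and 22 reads in pum kd replicates 1, 2 and 3. At a mean of 0.23 CPM it lay near the floor, and it was tested without passing. Its log2 fold change was 7.01 (SE 2.41, adjusted p = 0.804 by edgeR).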
